A study of Homo sapiens with 18 samples.

Results

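The transcription factor genes GATA6, HNF4A, HNF4G, FOXA1, FOXA2, FOXA3, PDX1 and SOX9, which act in the endoderm and the early pancreas, were followed in 3 human pancreatic ductal adenocarcinoma cell lines. They were chosen by name, 8 of the 63677 genes in the count tables, and all 8 were found and passed the filter on low counts. PANC1, COLO357 and SUIT2 cells were each transfected for 48 h with 6 siRNAs, short duplexes that direct an mRNA to be cut. These were 1 control siRNA, 2 siRNAs against KMT2D and 3 siRNAs against KMT2C, which gave 18 libraries of ribosome-depleted total RNA. KMT2C and KMT2D encode methyltransferases that place a methyl mark on lysine 4 of histone H3 at enhancers, and the series asks what the loss of either does to the transcriptome. Control libraries carried the transfection and a control duplex, no untransfected cells entered the comparisons here, and each line had a single control library. Whether the libraries stem from separate cultures is not stated, so p-values reflect only how these libraries, made with different siRNAs, scatter, and part of that scatter may be technical.

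FOXA proteins are pioneer factors that can bind closed chromatin and open enhancers in endoderm, and GATA6 opens chromatin beside them. HNF4A and HNF4G are nuclear receptors that drive liver, gut and pancreatic programmes. PDX1 is needed to form the pancreas, and SOX9 maintains its progenitors and, in the adult organ, its duct cells. In pancreatic cancer, loss of GATA6 and of the HNF4 and FOXA programmes is known to mark poorly differentiated tumours. GENCODE v29 places GATA6 (ENSG00000141448) on chromosome 18, HNF4A (ENSG00000101076) and FOXA2 (ENSG00000125798) on 20, HNF4G (ENSG00000164749) on 8 and FOXA1 (ENSG00000129514) on 14. It places FOXA3 (ENSG00000170608) on chromosome 19, PDX1 (ENSG00000139515) on 13 and SOX9 (ENSG00000125398) on 17.

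Depth was 14205640 to 32115894 gene counts a library. Levels are in CPM, a gene's count scaled by library size and TMM factor. By library size alone, 3 counts, about the most that a count of 0 leaves likely, were worth 0.0934 to 0.211 CPM. The share of read pairs outside annotated features was 7.49% to 30.4% and exceeded 20% in 3 libraries, COLO357 KMT2C siRNA3 and SUIT2 KMT2C siRNA2 and siRNA3. KMT2D mRNA lay at 34.8% to 84.7% of the same line's control in the 6 KMT2D siRNA libraries. KMT2C mRNA lay at 43.2% to 116% in the 9 KMT2C siRNA libraries, and the library labelled PANC1 KMT2C siRNA2 did not show less of it than its control. KMT2D mRNA was at 99.1% to 372% of control in the KMT2C siRNA libraries, above it in 8 of 9, and KMT2C mRNA at 92.7% to 274% in the KMT2D siRNA libraries, above it in 4 of 6. The part of the opposite target's level in the comparison of KMT2C with KMT2D siRNA was not tested. The epithelial list (KRT8, KRT18, KRT19, EPCAM, CDH1) summed to 810 to 6527 CPM with 5 of 5 genes above 1 CPM in every line. The leukocyte list stayed at 1.5 CPM or less, and acinar enzymes summed to at most 1.86 CPM. The endothelial list summed to at most 0.194 CPM in PANC1 and SUIT2 and to 4.73 to 28.3 CPM in COLO357, where CDH5 made up most of it and PECAM1 had no count. Of the fibroblast list 6 of 7 genes averaged under 1 CPM in each line. The seventh, COL1A1, averaged 90.1 CPM in PANC1, 65.8 in COLO357 and 3.03 in SUIT2. Its part in the differences between lines was not tested.

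The cell lines held different sets of these factors. PANC1 had FOXA2 and SOX9 and next to no GATA6, HNF4A, FOXA3 or PDX1. COLO357 had FOXA1, SOX9, GATA6, HNF4A and HNF4G with little FOXA2, FOXA3 or PDX1, and SUIT2 had all 8. Of the 8 genes, 4 were higher and 2 lower in COLO357 than in PANC1, where 66.8% of all 21028 genes tested were called, 34.7% higher and 32.1% lower. In SUIT2 against PANC1, 6 were higher and 1 lower, where 29.5% of all genes were called higher and 29.8% lower (59.3% together). In SUIT2 against COLO357, 7 were higher and 1 lower, where 28.8% of all genes were called higher and 30.9% lower (59.7% together). Calls here and below are those with an adjusted p under 0.05 over all genes in edgeR's quasi-likelihood test, with 6 libraries a line and the target as a further term. In bulk RNA, fewer cells with a gene on and less RNA per cell cannot be told apart. The plot of levels in the 18 libraries gives every value.

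**Figure D1:**
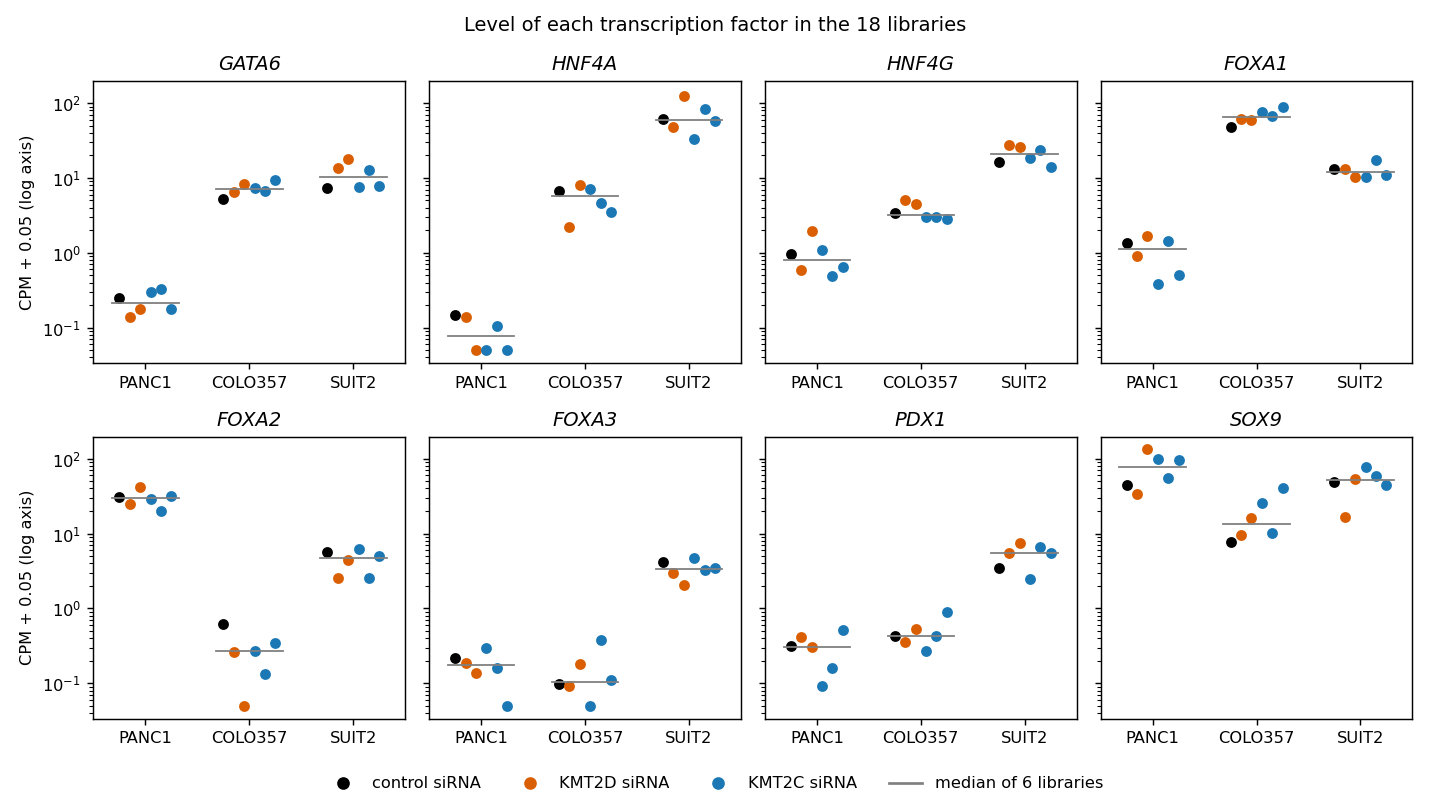
Level of each transcription factor in CPM (TMM-scaled, with 0.05 added so that a count of 0 can be drawn on the log axis) by cell line. Each point is 1 library, coloured by siRNA target, and the grey bar is the median of 6 libraries. GATA6 and HNF4A sit below 0.3 CPM in PANC1 and above 2 CPM in the other lines, and FOXA2 sits between 20.1 and 41.2 CPM in PANC1 and below 0.6 CPM in COLO357.

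GATA6, a zinc finger factor of endoderm, ranged from 0.0907 to 0.277 CPM in PANC1 (median 0.163, 25 counts over 6 libraries). In COLO357 it ranged from 5.23 to 9.48 CPM (median 7.0) and in SUIT2 from 7.36 to 17.9 CPM (median 10.2). No PANC1 library overlapped those of the other lines, while COLO357 and SUIT2 overlapped. The log2 fold change against PANC1 was 5.29 in COLO357 (SE 0.299, edgeR adjusted p = 4.67e-13) and 5.88 in SUIT2 (SE 0.3, edgeR adjusted p = 8.82e-14). SUIT2 exceeded COLO357 by 0.58 (SE 0.213, edgeR adjusted p = 0.0217). That call was lost without COLO357 KMT2D siRNA1 (edgeR adjusted p = 0.0667), SUIT2 KMT2D siRNA2 (0.0675) or SUIT2 KMT2C siRNA2 (0.0727), and without any one of these 3 siRNAs in all lines (0.0782 to 0.0998).

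HNF4A, the nuclear receptor of hepatocytes and gut epithelium, had 6 counts in all PANC1 libraries together, with 0 counts in 3 of them. Its level was 2.15 to 8.01 CPM in COLO357 (median 5.66) and 32.9 to 123 CPM in SUIT2 (median 59.8), so that no pair of lines overlapped. The fitted log2 fold changes were 6.82 for COLO357 against PANC1 (SE 0.583, edgeR adjusted p = 3.86e-09), 10.47 for SUIT2 against PANC1 (SE 0.559, edgeR adjusted p = 3.77e-12) and 3.65 for SUIT2 against COLO357 (SE 0.344, edgeR adjusted p = 2.44e-08). Those against PANC1 rest on so few counts that their size depends on the fit.

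HNF4G, the paralogue of HNF4A, was present in all lines in the same order. It ranged from 0.443 to 1.91 CPM in PANC1, 2.76 to 5.07 CPM in COLO357 and 13.9 to 27.3 CPM in SUIT2, with medians of 0.756, 3.2 and 20.8 CPM and no overlap. The log2 fold changes were 1.97 for COLO357 against PANC1 (SE 0.243, edgeR adjusted p = 2.32e-07) and 2.53 for SUIT2 against COLO357 (SE 0.222, edgeR adjusted p = 1.38e-09). On a scale per kilobase of annotated exon, HNF4A made up 4.01% ± 4.52 (SD, n = 6) of the HNF4A and HNF4G sum in PANC1. It made up 48.2% ± 14 in COLO357 and 66.5% ± 9.77 in SUIT2.

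The FOXA paralogues differed in which one led, FOXA2 in PANC1 and FOXA1 in COLO357 and SUIT2. FOXA2, the earliest of the family in endoderm, ranged from 20.1 to 41.2 CPM in PANC1 (median 30.1), from 0 to 0.565 CPM in COLO357 (median 0.219, 28 counts in all) and from 2.49 to 6.2 CPM in SUIT2 (median 4.71). The 3 lines did not overlap, and FOXA2 was lower than in PANC1 by a log2 fold change of -7.06 in COLO357 (SE 0.393, edgeR adjusted p = 8.53e-13) and -2.79 in SUIT2 (SE 0.289, edgeR adjusted p = 3.01e-08). FOXA1, known also from hormone-responsive breast and prostate epithelium, ran the other way. It ranged from 0.329 to 1.62 CPM in PANC1, from 48.0 to 87.3 CPM in COLO357 and from 10.3 to 17.3 CPM in SUIT2, again without overlap. FOXA1 was higher than in PANC1 by 6.05 in COLO357 (SE 0.303, edgeR adjusted p = 1.12e-13) and 3.65 in SUIT2 (SE 0.283, edgeR adjusted p = 2.56e-10). FOXA3, the family member best known in liver, reached 2.03 to 4.65 CPM in SUIT2 and stayed at or below 0.247 CPM in PANC1 and 0.334 CPM in COLO357. In SUIT2 it was higher by 4.68 than in PANC1 (SE 0.425, edgeR adjusted p = 2.16e-09) and by 4.86 than in COLO357 (SE 0.44, edgeR adjusted p = 2.54e-09).

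Per kilobase of exon, FOXA2 held 97.3% ± 1.37 (SD, n = 6) of the summed FOXA level in PANC1, with a lowest share of 95.1%. FOXA1 held 99.1% ± 0.58 in COLO357, with a lowest share of 98.1%. In SUIT2 the sum was split, with 49.7% ± 10.1 from FOXA1, 26.3% ± 8.28 from FOXA2 and 24% ± 4.08 from FOXA3. The summed level itself was 11.7 ± 2.75 CPM per kb in PANC1, 16.8 ± 3.39 in COLO357 and 6.38 ± 0.869 in SUIT2. As a ratio between the highest and lowest line, the total thus varied less than any one paralogue.

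PDX1, the homeodomain factor of the pancreatic bud and the beta cell, ranged from 0.0411 to 0.463 CPM in PANC1, 0.224 to 0.84 CPM in COLO357 and 2.45 to 7.44 CPM in SUIT2. SUIT2 stood above both other lines in every library, by a log2 fold change of 4.28 over PANC1 (SE 0.377, edgeR adjusted p = 1.32e-09) and 3.55 over COLO357 (SE 0.359, edgeR adjusted p = 1.53e-08). PANC1 and COLO357 overlapped, and their difference of 0.74 did not pass (SE 0.44, edgeR adjusted p = 0.145). SOX9 was the most even of the 8. It ranged from 34.1 to 133 CPM in PANC1, 7.63 to 40.1 CPM in COLO357 and 16.6 to 77.5 CPM in SUIT2, with medians of 76.1, 13.2 and 51.7 CPM, and all lines overlapped. COLO357 was lower than PANC1 by a log2 fold change of -2.18 (SE 0.416, edgeR adjusted p = 0.000189), and SUIT2 was higher than COLO357 by 1.56 (SE 0.41, edgeR adjusted p = 0.00349). SUIT2 against PANC1 was at -0.62 (SE 0.4, edgeR adjusted p = 0.194). Without the filter on low counts this difference passed (edgeR adjusted p = 0.000554).

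Within a line, levels were ordered per kilobase of exon, in CPM per kb. In PANC1 the order was SOX9 (19.6 ± 9.8, SD, n = 6), FOXA2 (11.4 ± 2.73), FOXA1 (0.25 ± 0.132), HNF4G (0.189 ± 0.113), PDX1 (0.0998 ± 0.0623), FOXA3 (0.0565 ± 0.0375), GATA6 (0.045 ± 0.0189) and HNF4A (0.00558 ± 0.00643). SOX9 and FOXA2 differed by less than the SD of SOX9, and every neighbouring pair from FOXA1 down to GATA6 differed by less than the larger SD of the pair. In COLO357, FOXA1 (16.7 ± 3.41) led SOX9 (4.63 ± 3.2) and GATA6 (1.84 ± 0.378). They were followed by HNF4G (0.749 ± 0.194), HNF4A (0.731 ± 0.313), PDX1 (0.173 ± 0.0868), FOXA2 (0.0888 ± 0.0753) and FOXA3 (0.0468 ± 0.0552). SOX9 and GATA6, HNF4G and HNF4A, and neighbours from PDX1 down differed by less than the larger SD of the pair. In SUIT2, SOX9 (12.8 ± 5.08) and HNF4A (9.27 ± 4.33) led. HNF4G (4.32 ± 1.13), FOXA1 (3.15 ± 0.664), GATA6 (2.81 ± 1.1), PDX1 (2.05 ± 0.748), FOXA2 (1.68 ± 0.602) and FOXA3 (1.55 ± 0.422) followed. From FOXA1 down, and between SOX9 and HNF4A, neighbours in SUIT2 differed by less than the larger SD.

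Other foregut and pancreatic progenitor factors were called between lines at shares to be read against the 66.8%, 59.3% and 59.7% of all genes called. Of 16 listed genes 13 were tested. In COLO357 against PANC1, 6 were higher and 3 lower, with a median log2 fold change of 0.28 beside 0.064 over all genes. In SUIT2, 8 were higher and 3 lower than in PANC1 (median 1.58 beside 0.0037), and 7 higher and 3 lower than in COLO357 (median 0.60 beside -0.0097). ONECUT2, a cut-homeodomain factor of liver and pancreas, averaged 1.66 CPM in PANC1, 11.02 in COLO357 and 204 in SUIT2. TBX3, a T-box factor, had no count in SUIT2 beside 10.03 CPM in PANC1 and 6.17 in COLO357. GATA4, the close relative of GATA6, averaged 12.6, 7.49 and 11.3 CPM, so PANC1, nearly without GATA6, was not without GATA4. PTF1A had 1 count and NKX2-2 none in the 18 libraries. Of the GATA and SOXE paralogues 4 of 6 were tested. GATA5 averaged 27.4 CPM in PANC1, 0.491 in COLO357 and 0.0184 in SUIT2, and GATA2 averaged 19.3, 8.2 and 0.183 CPM. Both were called lower in COLO357 and SUIT2 than in PANC1.

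Among endocrine and acinar factors 7 of 14 were tested, and 5 were higher and 1 lower in SUIT2 than in PANC1, where 29.5% of all genes were higher and 29.8% lower. In COLO357 against PANC1, 6 were higher and 1 lower (34.7% and 32.1% of all genes), and in SUIT2 against COLO357 3 were higher and 3 lower, with a median of -0.24 (28.8% and 30.9% of all genes). NR5A2, a nuclear receptor of acinar cells and embryonic endoderm, averaged 7.94 CPM in PANC1, 0.486 in COLO357 and 190 in SUIT2. ISL1, of islet cells and neurons, averaged 0.078, 0.713 and 23.1 CPM, and PAX6 averaged 1.33, 14.9 and 31.9 CPM. NEUROD1, INSM1 and RFX6 had no count. Of the gut, epithelial and squamous factors 12 of 13 were tested, with 10 higher and 2 lower in COLO357 than in PANC1 (34.7% and 32.1% of all genes) and 8 higher and 2 lower in SUIT2 than in PANC1 (29.5% and 29.8%). In SUIT2 against COLO357, 5 were higher and 3 lower. KLF5, of gut and gland epithelium, averaged 2.0 CPM in PANC1, 540 in COLO357 and 381 in SUIT2, and EHF averaged 0.292, 204 and 297 CPM. GRHL2 was present in SUIT2 (91.5 CPM) and TP63, of squamous epithelium, in COLO357 (67.8 CPM), each at or below 0.115 CPM in the other lines. KLF5, EHF and the members GATA6, HNF4A and FOXA1 were thus each at their lowest in PANC1.

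Genes of the differentiated tissues followed in part. All 11 ductal genes tested were higher in COLO357 than in PANC1, and 10 were higher and 1 lower in SUIT2, with medians of 4.13 and 6.14 on the log2 scale, where 34.7% and 29.5% of all genes were higher. In SUIT2 against COLO357, 5 were higher and 5 lower, where 28.8% of all genes were higher and 30.9% lower. BICC1 averaged 0.264, 59.7 and 325 CPM in PANC1, COLO357 and SUIT2, SLC4A4 averaged 0.102, 140 and 91.6 CPM, and KRT7 averaged 2.66, 698 and 192 CPM. PROM1 averaged 0.00702, 0.236 and 29.9 CPM. Of the 17 hepatic and intestinal genes known as targets of the HNF factors only 10 were tested, with 5 higher and 3 lower in COLO357 than in PANC1 and 7 higher and none lower in SUIT2, where 66.8% and 59.3% of all genes were called. In SUIT2 against COLO357, 5 were higher and 3 lower (28.8% and 30.9% of all genes). LGALS4 reached 28.7 CPM and TM4SF4 7.08 CPM in SUIT2, both below 0.5 CPM in the other lines. CDH17 averaged 3.17 CPM in PANC1, 0.0143 in COLO357 and 4.87 in SUIT2, while MUC13 was highest in COLO357 (5.41 CPM). APOA2 and APOC3 had no count in any library, and APOA1, APOB and TTR averaged below 0.03 CPM in SUIT2, the line richest in HNF4A. INS, GCG, SST and IAPP had no count in any line. The 8 islet genes summed to a median of 1.3 CPM in SUIT2, the line with most PDX1. Their median sum was 4.45 CPM in PANC1 and 2.04 CPM in COLO357. GHRL, 1 of the 8, averaged 0.282 CPM in SUIT2.

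With KMT2D siRNA none of the 8 genes passed the test against control siRNA in edgeR, where 253 genes or 1.2% of those tested were called. Neither KMT2D nor KMT2C was itself called there, though KMT2D mRNA lay below control in all 6 KMT2D siRNA libraries. At an unadjusted p under 0.05 in edgeR the count was 1 of 8 (GATA6), beside 2651 of all 21028 genes. DESeq2 also called none of the 8. The median log2 fold change of the 8 was 0.17, beside 0.0177 over all genes. Lines were pooled in this fit, with the cell line as a term, because each had 1 control library. The plot of changes against the line control shows how far libraries of one target spread.

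**Figure D2:**
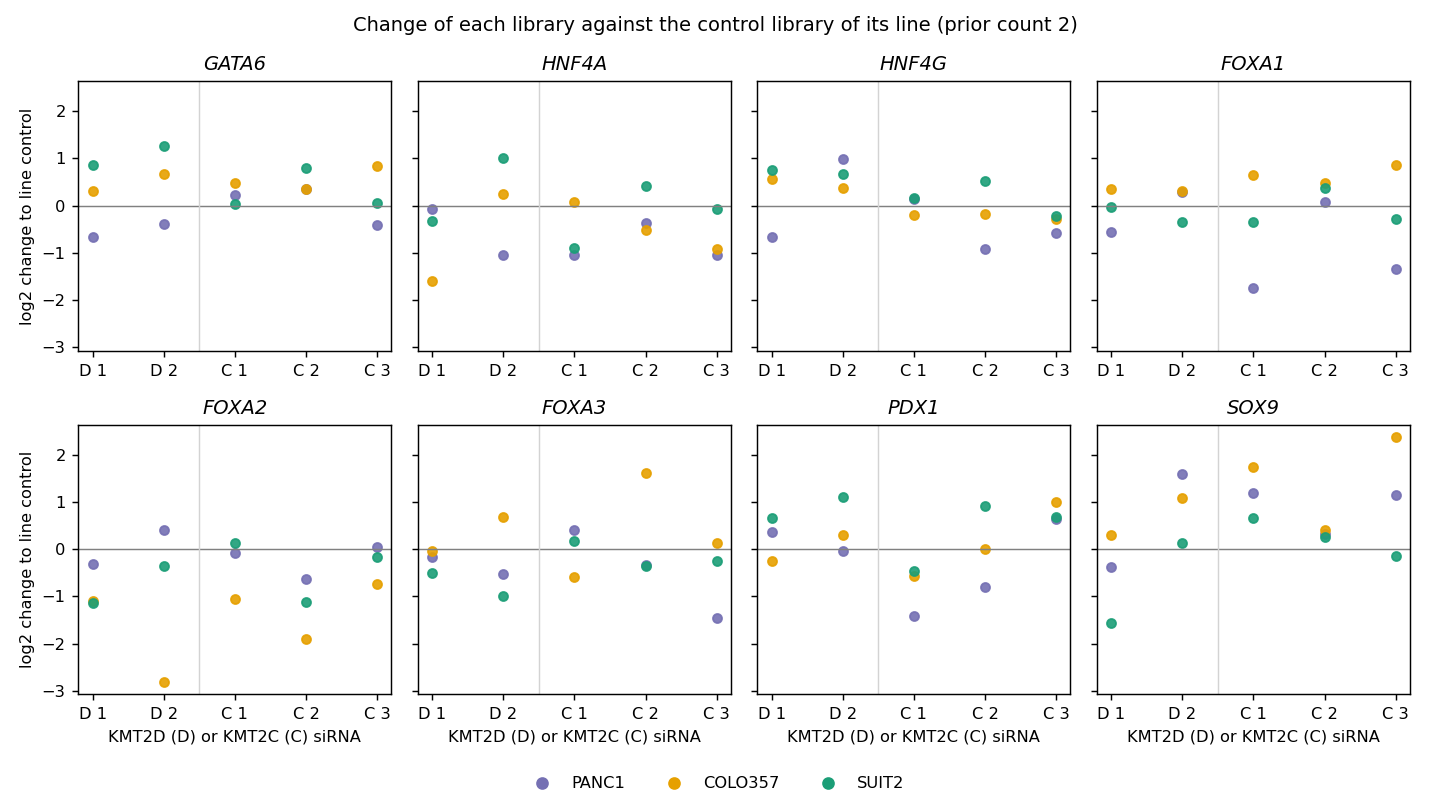
Log2 change of each siRNA library from its own line's control (prior count 2), by siRNA (D, KMT2D; C, KMT2C) and cell line, 1 point a library. For SOX9, 8 of 9 KMT2C libraries lie above 0, and the KMT2D siRNAs lie on both sides. Points for HNF4A, GATA6, FOXA3 and PDX1 in PANC1 and for FOXA2, FOXA3 and PDX1 in COLO357 rest on 14 counts or fewer a library.

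GATA6 was at 7.36 CPM in the SUIT2 control and at 13.4 and 17.9 CPM with KMT2D siRNA1 and siRNA2. In COLO357 it went from 5.23 CPM in the control to 6.53 and 8.36 CPM, and in PANC1 from 0.198 CPM to 0.0907 and 0.128 CPM, which is 6 counts against 2 and 3. It therefore lay above control in 4 of 6 libraries, all those of the lines that express it. The fitted log2 fold change was 0.65 (SE 0.307, edgeR adjusted p = 0.387). HNF4G was at 16.2 CPM in the SUIT2 control and at 27.3 and 25.7 CPM with the KMT2D siRNAs. In COLO357 it was at 3.39 CPM and then 5.07 and 4.42 CPM, and in PANC1 at 0.922 CPM and then 0.544 and 1.91 CPM. HNF4G lay above control in 5 of 6 libraries, at a log2 fold change of 0.55 (SE 0.278, edgeR adjusted p = 0.425).

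HNF4A with KMT2D siRNA was at 0.01 (SE 0.518), FOXA1 at 0.0039 (SE 0.327), FOXA2 at -0.55 (SE 0.382), FOXA3 at -0.56 (SE 0.513), PDX1 at 0.53 (SE 0.46) and SOX9 at 0.34 (SE 0.498) on the log2 scale. Their edgeR adjusted p-values were 0.596 to 0.999. For HNF4A and SOX9 the KMT2D siRNAs lay on opposite sides of control, as given below. PDX1 in SUIT2 was at 3.41 CPM in the control and at 5.43 and 7.44 CPM with the KMT2D siRNAs, and FOXA2 lay below control in 5 of 6 KMT2D libraries.

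With KMT2C siRNA none of the 8 genes passed against control siRNA, where 59 genes or 0.281% were called. KMT2C and KMT2D were not called there either. None of the 8 had an unadjusted p under 0.05 in edgeR, beside 1930 of all 21028 genes, and DESeq2 called none of the 8. This comparison uses the same 3 control libraries as the one for KMT2D. SOX9 was at 44.1 CPM in the PANC1 control and at 99.8, 55.1 and 97.1 CPM with KMT2C siRNA1, siRNA2 and siRNA3. In COLO357 it was at 7.63 CPM and then 25.8, 10.2 and 40.1 CPM, and in SUIT2 at 49.3 CPM and then 77.5, 59.1 and 44.7 CPM. SOX9 thus lay above control in 8 of 9 libraries and on average at 215% ± 139 (SD, n = 9) of it. The log2 fold change was 0.90 (SE 0.487, edgeR adjusted p = 0.6), and without the filter on low counts the same gene was called at 0.89 (edgeR adjusted p = 0.00605). Of all alternatives run for this comparison, that one alone called it.

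Other members with KMT2C siRNA were nearer to control. GATA6 was at 0.41 (SE 0.292) and lay above control in 8 of 9 libraries, though not by much in each. In COLO357 its 3 values of 7.33, 6.67 and 9.48 CPM all exceeded the control at 5.23 CPM. In SUIT2 it was at 7.49, 12.8 and 7.66 CPM beside 7.36 CPM in the control, and in PANC1 at 6, 5 and 3 counts beside 6. HNF4A was at -0.32 (SE 0.435), with 32.9, 82.2 and 58.5 CPM in SUIT2 beside 61.2 CPM in the control. HNF4G was at -0.10 (SE 0.26), FOXA1 at 0.02 (SE 0.304), FOXA2 at -0.47 (SE 0.363), FOXA3 at -0.0086 (SE 0.526) and PDX1 at 0.26 (SE 0.443) on the log2 scale. The edgeR adjusted p-values of these 7 were 0.705 to 0.998. FOXA1 differed in sign by line without a test that passed: in COLO357 all 3 KMT2C libraries (75.2, 67.3 and 87.3 CPM) exceeded the control at 48.0 CPM, while in PANC1 they were at 0.329, 1.39 and 0.463 CPM beside 1.32 CPM. The difference of its KMT2C effect between lines had an unadjusted p of 0.113 in edgeR (adjusted p = 1).

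**Figure D3:**
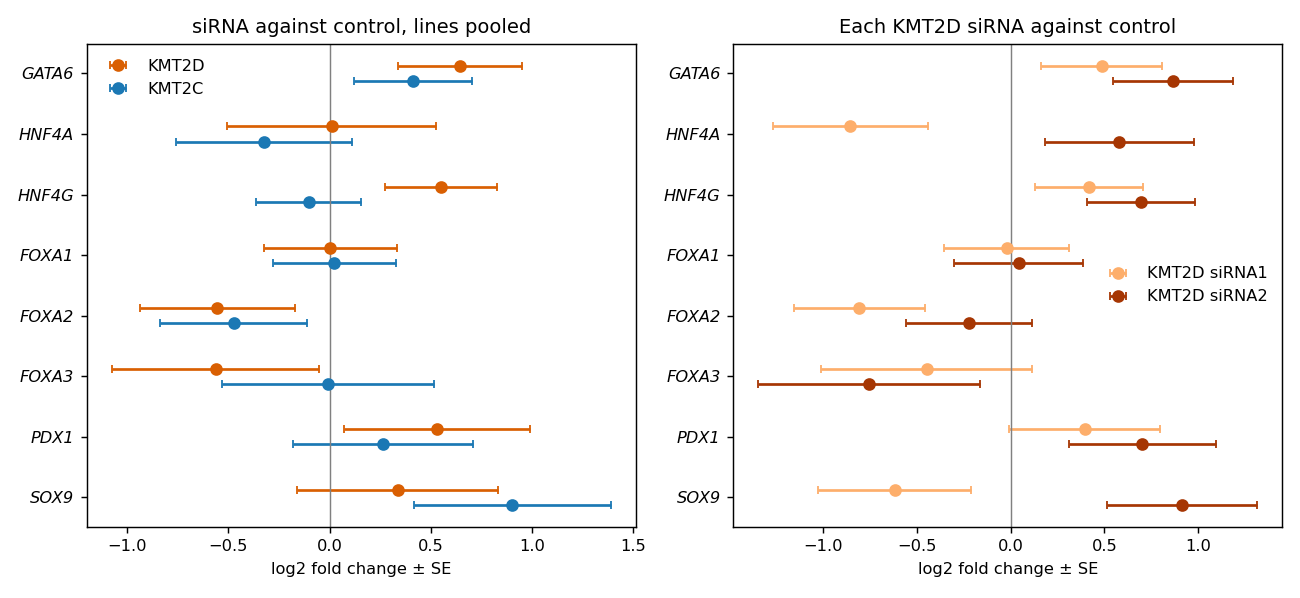
Fitted log2 fold changes with their standard errors (SE) from edgeR for the 8 genes, on the left for KMT2D and KMT2C siRNA against control over all lines, on the right for each KMT2D siRNA against control. No value passed the adjusted threshold; SOX9 and HNF4A lie on opposite sides of 0 for the KMT2D siRNAs (SOX9 at -0.62 and 0.91).

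Set against each other, the targets differed for 1087 genes or 5.17% of those tested and for none of the 8. HNF4G came nearest. Its values with KMT2C siRNA were 18.2, 23.3 and 13.9 CPM in SUIT2. In COLO357 they were 2.97, 3.0 and 2.76 CPM, and in PANC1 1.03, 0.443 and 0.59 CPM. All COLO357 values lay below both KMT2D values of that line, as they did in SUIT2, while PANC1 overlapped. The log2 fold change of KMT2C against KMT2D siRNA was -0.65 (SE 0.203, edgeR adjusted p = 0.0612). DESeq2 called it at -0.66 (DESeq2 adjusted p = 0.0151), as did edgeR without the filter on low counts at -0.68 (edgeR adjusted p = 0.024). It also passed without the PANC1 KMT2D siRNA1 library (edgeR adjusted p = 0.0277), without the SUIT2 KMT2C siRNA2 library (0.0429) and without KMT2D siRNA1 in all lines (0.0328). SOX9 was at 0.57 (SE 0.37, edgeR adjusted p = 0.388) and was called at 0.54 without the filter (edgeR adjusted p = 0.0199) and at 1.51 without KMT2D siRNA2 (edgeR adjusted p = 0.0294). The other 6 genes were between -0.33 and 0.55 on the log2 scale.

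Each siRNA was next set against control in a fit that kept the 5 siRNAs apart and pooled the lines. None of the 8 genes was called for KMT2D siRNA1 (4.02% of all genes called), KMT2D siRNA2 (8.92%), KMT2C siRNA1 (1.2%), KMT2C siRNA2 (5.81%) or KMT2C siRNA3 (0.623%). At an unadjusted p under 0.05 in edgeR, 1 of 8 stood for KMT2D siRNA1, 3 for siRNA2 and 1, 1 and 2 for the KMT2C siRNAs. Of all 21028 genes, 3693 and 4720 stood there for the KMT2D siRNAs and 2356, 4119 and 2214 for the KMT2C siRNAs. DESeq2 called FOXA2 for KMT2C siRNA2 and no other. The plot of levels by siRNA shows SOX9, HNF4A and FOXA2.

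**Figure D4:**
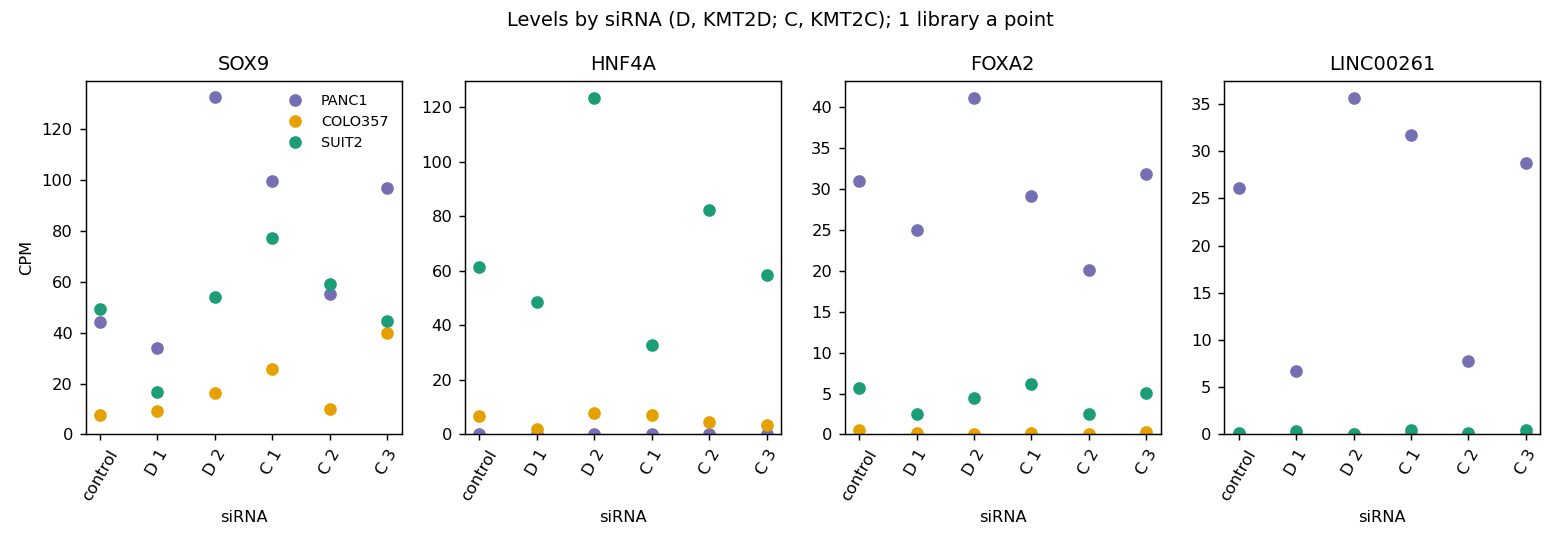
Levels in CPM of SOX9, HNF4A, FOXA2 and the noncoding RNA LINC00261 by siRNA (D, KMT2D; C, KMT2C) and cell line, 1 point a library. SOX9 and HNF4A are at 133 and 123 CPM at their highest, both with KMT2D siRNA2. FOXA2 and LINC00261 have their lowest PANC1 values in the KMT2D siRNA1 and KMT2C siRNA2 libraries.

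SOX9 with KMT2D siRNA1 was at 34.1 CPM in PANC1, 9.37 in COLO357 and 16.6 in SUIT2. With KMT2D siRNA2 it was at 133, 16.3 and 54.0 CPM in the same order, higher in all 3 lines. Against control it was at -0.62 with siRNA1 (SE 0.408, edgeR adjusted p = 0.49) and at 0.91 with siRNA2 (SE 0.401, edgeR adjusted p = 0.196). The latter was called without the filter on low counts (edgeR adjusted p = 0.000112) and, at 1.40, without SUIT2 (edgeR adjusted p = 0.038). KMT2C siRNA1, siRNA2 and siRNA3 put SOX9 at 1.11 (SE 0.401, edgeR adjusted p = 0.278), 0.31 (SE 0.398, 0.742) and 1.15 (SE 0.408, 0.317). Without the filter siRNA1 and siRNA3 were called (edgeR adjusted p of 7.46e-06 and 9.03e-06).

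HNF4A with KMT2D siRNA1 was at 2.15 CPM in COLO357 and 48.6 CPM in SUIT2, and with siRNA2 at 8.01 and 123 CPM, while both PANC1 libraries held 2 counts or fewer. Against control it was at -0.85 with siRNA1 (SE 0.412, edgeR adjusted p = 0.295) and at 0.58 with siRNA2 (SE 0.397, edgeR adjusted p = 0.434). A contrast of the KMT2D siRNAs with each other was added after these values were seen. It called 2386 genes or 11.3% of those tested, 5.63% higher and 5.72% lower with siRNA2, and 2 of the 8 genes, both higher. They were HNF4A at 1.43 (SE 0.404, edgeR adjusted p = 0.0286) and SOX9 at 1.53 (SE 0.409, edgeR adjusted p = 0.0285). HNF4A was not called by DESeq2 (1.04, DESeq2 adjusted p = 0.411), nor without PANC1 or SUIT2 (edgeR adjusted p of 0.0933 and 0.147), nor without COLO357 siRNA1 (0.18), SUIT2 siRNA1 (0.059) or SUIT2 siRNA2 (0.22). SOX9 was not called without PANC1 (edgeR adjusted p = 0.322), nor without any one of the 4 KMT2D libraries of PANC1 and SUIT2 (0.0555 to 0.143), nor without KMT2C siRNA1 (0.0574). The remaining 6 genes were between -0.31 and 0.58 in this contrast. Other listed factors called there were TFAP2A (1.10), GATA3 (1.68), GRHL2 (1.01), NR5A2 (0.84), ZEB1 (0.64) and GLIS3 (0.58), all higher with siRNA2, and MNX1 (-1.12). Of the ductal genes KRT7 (0.73) was called.

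FOXA2 with KMT2C siRNA2 lay below control in all lines. It was at 20.1 CPM beside 31.0 CPM in PANC1, at 2.53 beside 5.63 CPM in SUIT2 and at 2 counts beside 12 in COLO357. The log2 fold change was -1.06 (SE 0.355, edgeR adjusted p = 0.0844). DESeq2 called it at -1.22 (DESeq2 adjusted p = 0.0427), and edgeR did so without the filter at -1.09 (edgeR adjusted p = 0.00833), without COLO357 KMT2D siRNA2 (0.0264) and without that siRNA in all lines (0.0248). KMT2D siRNA1 gave 25, 2.49 and 0.215 CPM in PANC1, SUIT2 and COLO357 and a value of -0.81 (SE 0.348, edgeR adjusted p = 0.222). The remaining siRNAs had FOXA2 at -0.22 (KMT2D siRNA2), -0.15 (KMT2C siRNA1) and -0.20 (KMT2C siRNA3).

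LINC00261, a long noncoding RNA transcribed next to FOXA2, was detected mainly in PANC1, the line with most FOXA2, and hardly in SUIT2, which also expressed FOXA2. It was at 26.1 CPM in the PANC1 control, 6.67 and 35.6 CPM with KMT2D siRNA1 and siRNA2, and 31.8, 7.76 and 28.7 CPM with KMT2C siRNA1, siRNA2 and siRNA3. Its lowest values fell in the same libraries as those of FOXA2, and in COLO357 and SUIT2 it stayed at or below 0.516 CPM. LINC00261 was at -1.17 with KMT2D siRNA1 (SE 0.604, edgeR adjusted p = 0.336) and -1.46 with KMT2C siRNA2 (SE 0.586, edgeR adjusted p = 0.163). GATA6-AS1, transcribed beside GATA6, averaged 0.00549, 0.545 and 0.458 CPM in PANC1, COLO357 and SUIT2, and was like GATA6 lowest in PANC1. HNF4A-AS1 averaged 0.408 CPM in SUIT2 and at most 0.01 CPM elsewhere. The strand setting of the counting was not known here, so antisense partners may share reads with their genes.

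PDX1 differed between the KMT2C siRNAs in SUIT2, at 2.45 CPM with siRNA1, 6.46 with siRNA2 and 5.52 with siRNA3 beside 3.41 CPM in the control. PANC1 gave 0.0411, 0.111 and 0.463 CPM and COLO357 0.224, 0.375 and 0.84 CPM, each on 14 counts or fewer. Against control PDX1 was at -0.82 with siRNA1 (SE 0.445, edgeR adjusted p = 0.518), 0.39 with siRNA2 (SE 0.404, 0.657) and 0.89 with siRNA3 (SE 0.404, 0.429). In a test of any difference among the 3 KMT2C siRNAs, also added after the values were seen, 949 genes or 4.51% were called and none of the 8. PDX1 came closest there (edgeR adjusted p = 0.0519), followed by FOXA2 (0.241).

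Calls in the other endoderm and pancreas lists are to be read against the share of all genes called. With the siRNAs of a target pooled, KMT2D siRNA called 1 gene against control, where 1.2% of all genes were called. It was FABP1, an intestinal and liver fatty acid-binding protein. KMT2C siRNA called none, where 0.281% of all genes were called. FABP1 was found in SUIT2 alone but for 1 count, at 5.68 CPM in the control and at 0.641 and 0.264 CPM with KMT2D siRNAs (log2 fold change -3.38, SE 0.686, edgeR adjusted p = 0.0213). It was at 0.129, 0.666 and 1.13 CPM with KMT2C siRNAs. Without the SUIT2 control library the value was 0.57 (edgeR adjusted p = 0.946). The call was also lost without PANC1 KMT2C siRNA1 (edgeR adjusted p = 0.0575) or SUIT2 KMT2D siRNA2 (0.103), and in DESeq2 (DESeq2 adjusted p = 0.125). HNF4A in the same SUIT2 libraries was at 61.2, 48.6 and 123 CPM. With the siRNAs kept apart, 1 of 10 hepatic and intestinal genes was lower with each KMT2D siRNA and KMT2C siRNA1, and 2 with KMT2C siRNA2. Of 7 endocrine and acinar factors, 1 was higher with KMT2D siRNA2, 1 lower with KMT2C siRNA1 and 1 higher with KMT2C siRNA3. Of 13 foregut factors 1 was higher with KMT2C siRNA2, and of 11 ductal genes 1 was lower with KMT2D siRNA1. Of all genes, 4.02% and 8.92% were called for the KMT2D siRNAs and 1.2%, 5.81% and 0.623% for the KMT2C siRNAs. Between KMT2C and KMT2D siRNA 5.17% of all genes were called. NR5A2 (-0.97, edgeR adjusted p = 0.049), TP63 (-1.17, edgeR adjusted p = 0.0288) and the chloride channel gene CFTR (-1.49, edgeR adjusted p = 0.0233) were lower with KMT2C siRNA. CDH5 (1.93, edgeR adjusted p = 0.00977), of endothelial cells, was higher. NR5A2 in SUIT2 was at 189 and 341 CPM with the KMT2D siRNAs and 78.5, 239 and 159 CPM with the KMT2C siRNAs, which overlap. TP63 in COLO357 was at 104 and 90.6 CPM and then 40.1, 63.6 and 47.1 CPM, without overlap. CFTR in SUIT2 was at 29 and 22.7 CPM and then 13.9, 10.4 and 6.53 CPM, and CDH5 in COLO357 at 4.64 and 4.68 CPM and then 27.9, 13.4 and 15.5 CPM. PECAM1 had no count and VWF and KDR averaged below 0.3 CPM in COLO357. The call of NR5A2 was lost in 13 of 18 fits that each left out 1 library, with edgeR adjusted p-values up to 0.139. That of TP63 was lost without COLO357 KMT2D siRNA1, KMT2C siRNA1 or KMT2C siRNA3 (edgeR adjusted p of 0.0575 to 0.0666). That of CFTR was lost without SUIT2 KMT2D siRNA1 (edgeR adjusted p = 0.0735) or KMT2C siRNA3 (0.0638), and that of CDH5 without COLO357 KMT2D siRNA2 (0.0554). A replicate block on the siRNA ended the calls of FABP1, NR5A2 and TP63 (limma adjusted p of 0.249, 0.121 and 0.0816).

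Of the 11 ductal genes, 10 had a negative value with KMT2C siRNA and 9 with KMT2D siRNA, with medians of -0.54 and -0.32 on the log2 scale beside 0.0035 and 0.0177 over all genes, and none was called. The 5 epithelial genes, of which KRT19 and EPCAM are also on the ductal list, were all negative and uncalled, at medians of -0.43 and -0.16. Against KMT2D siRNA, the 12 epithelial and squamous factors tested had a median of -0.23 with KMT2C siRNA and 1 call, TP63.

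Within single lines, none of the 8 genes was called in any of 6 comparisons in edgeR or DESeq2. The share of all genes called was 0% for both targets in PANC1 and COLO357, 0.038% for KMT2D in SUIT2 and 0.00476% for KMT2C in SUIT2. These fits take the spread for a line's single control library from the groups that have replicates. At an unadjusted p under 0.05 in edgeR stood GATA6 with KMT2D siRNA in SUIT2, at 1.09 (SE 0.428, adjusted p = 0.514), and FOXA2 with KMT2D siRNA in COLO357, at -2.32 (SE 1.01, adjusted p = 1) on 5 and 0 counts beside 12. The KMT2D and KMT2C effects were also tested for a difference between lines, where 0% of all genes were called and every one of the 8 had an adjusted p of 1 in edgeR. The lowest unadjusted p-values of the 8 were 0.136 (GATA6, KMT2D) and 0.113 (FOXA1, KMT2C).

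Across the 18 libraries, with the mean of each line removed from log2 CPM, no pair of the 8 genes was strongly correlated. Pearson's r between any pair was from -0.45 (GATA6 with FOXA2) to 0.29 (GATA6 with HNF4A), given here as a description over libraries that share lines and siRNAs. Within single lines, over 6 libraries each, r spread wider. In SUIT2, the line with all 8, it ran from -0.92 (GATA6 with FOXA3) to 0.89 (GATA6 with HNF4G). In COLO357 it ran from -0.58 (FOXA2 with FOXA3) to 0.87 (FOXA1 with SOX9). In PANC1 it ran from -0.96 (HNF4A with SOX9) to 0.86 (HNF4G with FOXA2), and several genes of these 2 lines rest on few counts. The protein-coding genes most like each member were sought by the line-centred r over the 18 libraries among 11588 genes of at least 2 CPM. SOX9 was most like MED1, a Mediator subunit (r = 0.88), FOSL1, an AP-1 subunit (0.87), and UBLCP1 (0.87). HNF4G was most like SH3GLB1 (0.86), TMX4 (0.84) and RMDN2 (0.84), and HNF4A most like LIMCH1 (0.85), USH1C (0.73) and RRBP1 (0.72). PDX1 was closest to SF3B2, a splicing factor subunit (0.83), with MYPOP (0.80) and ING5 (0.77), and GATA6 to TMEM209 (0.80), RSRP1 (0.77) and SPATA6L (0.76). For FOXA1 the list was MMAA (0.76), BOLA1 (0.75) and ZNF221 (0.72), for FOXA2 it was TBC1D30 (0.78), ANKRD36 (0.73) and NIPA1 (0.72), and for FOXA3 VIPR2 (0.71), BAP1 (0.67) and RILP (0.65). Each is the highest of many values, and no other member of the 8 was among them. PDX1 and FOXA3 averaged under 2 CPM over the 18 libraries, so they were not in the pool and could not have been.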

How the data were processed

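The authors deposited a table of unnormalised counts for each library, with Ensembl gene identifiers, made with TopHat2 and HTSeq on hg19, with FastQC and edgeR also named, per the submitters' processing notes. Their versions, the annotation release, overlap mode and strand setting were not known here. Per the labels, 100 nt paired reads came from stranded total RNA libraries spread over pools and lanes, without the pool of each library. The 5 entries that name no gene (33% to 53.4% of pairs) were left out of library sizes.

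Symbols were matched for 52181 of 63677 identifiers, and exon lengths and biotypes came from GENCODE v29 (GRCh38). PDX1-AS1 was not matched, and some listed genes are not reported here. The edgeR filter by expression (minimum count 10, total 15, by line and target) kept 21028 genes. Genes were tested in edgeR 4.0.16 (with limma 3.58.1, R 4.3.3) by quasi-likelihood F, robust, TMM-scaled, with Benjamini-Hochberg adjustment over all genes and a threshold of 0.05. The 3 fits over 18 libraries used line and target, line and siRNA, or 9 line-by-target groups. The SE follows from the log2 fold change and its F value. CPM are TMM-scaled. Library changes used a prior count of 2. Scripts were tested on simulated data.

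The members and gene lists were chosen with earlier results of these data known. All members were named in every comparison, and from each other list the genes called, or up to 4 with the smallest p, for the lines over the 3 line comparisons together. Calls of list genes for single siRNAs against control are given as counts. GATA4 and the genes at or near 0 counts were named after their values were seen. Likeness named 3 genes a member. The contrasts among siRNAs of 1 target and the fit without the 3 libraries over 20% in no annotated feature were added after the data were seen. Alternatives were another scaling, DESeq2 1.42.0, no low-count filter, a replicate block, and leaving out each library, siRNA and line. The replicate block was limma voom with the correlation of same-numbered siRNAs. For the 3 line comparisons it was instead the edgeR fit with line and siRNA. No promoter or protein sequence is printed.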

Additional observations from a re-analysis of the deposited data

Results flagged for a closer look

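HNF4G with KMT2D siRNA1 in PANC1 stood apart from the other 5 KMT2D siRNA libraries, at a log2 change of -0.67 against the control of its line, where those libraries lay between 0.37 and 0.98. It rests on 12 counts beside 28 in the control. Of the 16 sets of libraries examined this way, chance flags about 1 in 20.

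FOXA1 lay above control in both KMT2D siRNA libraries of COLO357 (mean log2 change 0.34) and below it in both of SUIT2 (mean -0.19). The difference of the KMT2D effect between the 3 lines was tested for FOXA1 and did not pass (edgeR adjusted p = 1, unadjusted p = 0.722).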

How the results depend on the processing

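The 3 libraries per siRNA, a single control a line and low counts (HNF4A, GATA6, FOXA3 and PDX1 in PANC1, FOXA2, FOXA3 and PDX1 in COLO357) limit these results. The causes of the differences listed here were not tested. Of the line differences among the 8 genes, all kept their direction in every alternative run but FOXA3 in COLO357 against PANC1, from -0.997 to 0.35 over the fits that left out libraries or siRNAs.

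The replicate block put HNF4G with KMT2C siRNA at 0.000101 and FOXA2 in KMT2C against KMT2D siRNA at -0.081, and called 77, 26 and 288 genes for KMT2D and KMT2C siRNA against control and for KMT2C against KMT2D, beside 253, 59 and 1087. It changed no call among the 8 genes and ended those of FABP1, NR5A2 and TP63 (limma adjusted p of 0.249, 0.121 and 0.0816). A number marks the same siRNA in each line. Deviations of same-numbered libraries correlated at 0.0564 to 0.379, over 0.1 in 14 of 15 pairs, and all 9 KMT2C libraries correlated best with their own number, a hint of shared deviation. With 2 KMT2D libraries a line the deviations mirror each other, so both KMT2D siRNAs give the same values and are not separate pairs. The fits with line and target took the libraries as independent. The fits without the block were kept because 1 pair was not over 0.1, the level required of every pair. DESeq2 called 678, 231 and 1993 genes in these comparisons and no filter 657, 270 and 1762. Leaving out PANC1, COLO357 or SUIT2 left 46, 88 and 30, then 3, 9 and 6, then 96, 283 and 109. Leaving out the 3 libraries over 20% outside annotated features left 37 for KMT2C siRNA and 342 for KMT2C against KMT2D. Fits without 1 library or siRNA called 36 to 1142, 7 to 117 and 369 to 1839.

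DESeq2 put HNF4A with KMT2D siRNA at -0.11, FOXA1 and FOXA3 with KMT2C siRNA at -0.012 and 0.012, and FOXA1 in KMT2C against KMT2D at -0.025. RLE scaling put FOXA3 with KMT2C siRNA at 0.00040, and no filter put FOXA1 in KMT2C against KMT2D at -0.0067. Without SUIT2, HNF4A with KMT2D siRNA was at -0.53, GATA6, FOXA1 and FOXA2 in KMT2C against KMT2D at 0.23, -0.026 and -0.19, and PDX1 with KMT2C siRNA2 at -0.42. Without COLO357, FOXA1 was at -0.16 with KMT2D siRNA, -0.39 with KMT2C siRNA and -0.24 between them, and FOXA2 at 0.060 with KMT2D siRNA2 and 0.015 with KMT2C siRNA1. Without PANC1, HNF4G and FOXA3 with KMT2C siRNA were at 0.012 and 0.10. Without the 3 libraries over 20%, chosen after the data were seen, FOXA1, FOXA3 and PDX1 with KMT2C siRNA were at -0.16, 0.20 and -0.30, FOXA1 in KMT2C against KMT2D at -0.16 and PDX1 with KMT2C siRNA2 at -0.081.

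Of the 8 genes, no filter called 1 for KMT2C siRNA, 2 in KMT2C against KMT2D, 1 each for KMT2D siRNA2 and KMT2C siRNA1, siRNA2 and siRNA3, 2 among the KMT2C siRNAs and 1 for KMT2C siRNA in COLO357. DESeq2 called 1 in KMT2C against KMT2D, 1 for KMT2C siRNA2, 1 between the KMT2D siRNAs and 1 among the KMT2C siRNAs. Without SUIT2 there was 1 for KMT2D siRNA2 and 1 between the KMT2D siRNAs, and without PANC1 0 between them.

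Over fits without 1 library or siRNA, KMT2D siRNA values ranged from -0.87 to 0.57 (HNF4A), -0.28 to 0.20 (FOXA1), -0.62 to 0.94 (SOX9) and -4.12 to 0.57 (FABP1). KMT2C siRNA values ranged from -0.25 to 0.00402 (HNF4G), -0.27 to 0.21 (FOXA1), -0.19 to 0.29 (FOXA3) and -0.18 to 0.62 (PDX1). KMT2C against KMT2D ranged from -0.88 to 0.57 (HNF4A), -0.14 to 0.15 (FOXA1), -0.21 to 0.36 (FOXA2), -0.68 to 0.074 (PDX1) and -0.030 to 1.51 (SOX9), with 0 to 1 of the 8 called. FOXA2 with KMT2C siRNA1 ranged from -0.49 to 0.10, and PDX1 and SOX9 with KMT2C siRNA2 from -0.19 to 0.55 and -0.11 to 0.76, with 0 to 1 called. Between the KMT2D siRNAs 0 to 2 were called, and among the KMT2C siRNAs 0 to 1.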
